A study of Homo sapiens with 12 samples.

Results

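The clustered protocadherins are cell-surface cadherins encoded by 3 neighbouring gene clusters, alpha, beta and gamma, on chromosome 5. Their genes were taken from the deposited count table as every row whose name was PCDHA, PCDHB, PCDHGA, PCDHGB or PCDHGC followed by a number, together with PCDHAC1 and PCDHAC2. This gave 54 of 57169 genes, with 16 in the alpha, 16 in the beta and 22 in the gamma cluster. The gamma genes comprised 12 PCDHGA, 7 PCDHGB and 3 PCDHGC genes. RNA had been sequenced from 12 xenograft tumours of the Ewing sarcoma cell line SK-ES1, which carries the fusion transcription factor EWSR1-FLI1. The 6 controls are called wild-type in the labels, and the other 6 libraries come from tumours with a knock-down of RING1B. How the knock-down was made, what the controls received, the host species and its age are not stated in the labels. They also do not say whether libraries come from separate animals, and p-values here reflect the spread among libraries, which may be technical.

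RING1B, the product of RNF2, is an E3 ligase of Polycomb repressive complex 1 that places ubiquitin on histone H2A in silenced chromatin. In neurons each cell switches on a small, largely random set of clustered protocadherin promoters, and the resulting mixture of surface proteins lets branches of the same neuron recognise each other through homophilic binding. Each alpha or gamma gene is a large variable exon, with a promoter of its own, spliced to constant exons that all genes of its cluster share, whereas each beta gene is a single large exon. Promoter choice is known to depend on DNA methylation and on CTCF and cohesin, which join promoters to distant enhancers. The C-type genes at the end of the alpha and gamma clusters (PCDHAC1, PCDHAC2, PCDHGC3, PCDHGC4 and PCDHGC5) are known for more uniform expression across neurons.

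Library totals lay between 23859184 and 26678325 counts, and 3 counts corresponded to 0.109 to 0.128 CPM (counts scaled to a common library total with TMM factors). RNF2 was lower in all 6 knock-down libraries (12.4 to 23.4 CPM) than in any control (37.5 to 57.9 CPM), with a log2 fold change of −1.43 (edgeR adjusted p = 0.00347). The 12 Ewing sarcoma markers, of which 11 were above the low-count filter, summed to 3466 to 3947 CPM in controls and 3637 to 4107 CPM in knock-downs, and its member CD99 was listed at 0 in every library. Markers of other cell types summed to less over each whole list. The 10 fibroblast and pericyte genes (9 above the filter) summed to 509 to 1264 CPM in controls and 371 to 1254 CPM in knock-downs, and the 9 endothelial genes (6 above it) to 18.9 to 31.1 and 18.7 to 31.2 CPM. The 10 macrophage and leukocyte genes (4 above it, CD3E at 0) summed to 4.06 to 15.7 and 5.83 to 18.6 CPM, and the 10 neuron and Schwann cell genes (7 above it) to 167 to 247 and 192 to 247 CPM. In bulk tumour RNA, fewer cells of a type and less RNA per cell cannot be told apart. How host reads were handled is not stated, and whether these sums come from tumour cells or from host cells was not tested.

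The members lie in chromosome order on the plus strand of chromosome 5 (hg38), from the start of PCDHA1 at 140786136 to the end of PCDHGA1 at 141512981. Their exons in the table were those of GENCODE release 29 for 54 of 54, and 53 were annotated as protein-coding. The exception was PCDHA14, a pseudogene that lies wholly inside an exon of PCDHA10. It had 0 counts in each library, whereas PCDHA10 had 38 to 65. Since the constant exons belong to every gene of the cluster, levels were compared between genes per kilobase of exon that no other gene shares. This assumes that reads in shared exons were not counted, which the sources used here do not state, and alpha and gamma levels against beta levels depend on it. PCDHGA12 had 0 to 6 counts per library and PCDHGC3, with the same constant exons, 400 to 1152. Reads in those exons were therefore not counted for every gamma gene. For PCDHA3 this length was 3599 of 7460 bases, and for PCDHGC3 3251 of 5432 bases. The other beta, alpha and gamma members carry similar variable exons: the share of 50-base words of the first exon that recurs in another member was 100% for PCDHA14 and, among the others, highest for PCDHGB4 (58.5%), whose exon overlaps that of PCDHGA8 (37.1%), followed by PCDHB8 (45.8%, mostly with PCDHB13) and PCDHB10 (35.4%). Counts of these genes are less certain, because reads in repeated words can be lost or moved between members. The 5 C-type genes, PCDHB1 and PCDHGB3 shared 0% of these words. The 12 antisense genes that overlap members summed to at most 0.335 CPM in any library.

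Promoters differed in sequence between the clusters, and the stretch around the repeated element is shown for members whose levels the following paragraphs describe. RefSeq promoter windows (GRCh38.p14, from 250 bases before to 50 bases after the start) were matched by symbol for 47 of the 54 members. Each stretch is on the plus strand, 5′ to 3′, and lies upstream of the gene's start, with the element's first base 16 to 199 bases before it. Capitals mark the element.
PCDHA2, chr5:140794765-140794812: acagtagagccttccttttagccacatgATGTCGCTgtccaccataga
PCDHA6, chr5:140827881-140827928: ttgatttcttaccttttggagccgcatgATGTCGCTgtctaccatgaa
PCDHB2, chr5:141094527-141094575: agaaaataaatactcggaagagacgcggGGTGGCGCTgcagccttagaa
PCDHB5, chr5:141135162-141135205: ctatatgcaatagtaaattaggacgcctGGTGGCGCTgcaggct
PCDHB13, chr5:141213848-141213896: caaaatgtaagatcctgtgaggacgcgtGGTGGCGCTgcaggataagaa
PCDHGB2, chr5:141359909-141359955: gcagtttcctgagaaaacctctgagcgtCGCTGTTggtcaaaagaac
PCDHGA6, chr5:141373823-141373869: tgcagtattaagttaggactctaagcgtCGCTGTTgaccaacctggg
PCDHGA7, chr5:141382637-141382683: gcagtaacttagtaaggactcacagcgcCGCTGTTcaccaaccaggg
PCDHGB5, chr5:141397851-141397897: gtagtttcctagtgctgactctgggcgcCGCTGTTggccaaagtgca
PCDHGA11, chr5:141420958-141421004: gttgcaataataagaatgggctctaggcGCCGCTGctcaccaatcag
PCDHGC3, chr5:141475866-141475912: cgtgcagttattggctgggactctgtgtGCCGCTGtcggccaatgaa
Every element searched for contains CGCT, so its presence in all 11 stretches was set by the search. PCDHAC2 was searched in the same way and gave no stretch. The element shown is ATGTCGCT in the alpha and GGTGGCGCT in the beta stretches. In the gamma stretches it is CGCTGTT, or GCCGCTG for PCDHGA11 and PCDHGC3. Searched on both strands, GGTGGCGCT was present in 13 of 14 beta windows, PCDHB1 being the exception, in 0 of 13 alpha and 0 of 20 gamma windows, and in 0.501% of all 35116 promoters. ATGTCGCT was present in 9 of 13 alpha windows (not in PCDHA9, PCDHA11, PCDHAC1 or PCDHAC2) and in 0.234% of all promoters. CGCTGTT was present in 13 of 20 gamma windows, in that of PCDHB3 and in 2.26% of all promoters. GCCGCTG, which can overlap CGCTGTT by 5 letters, was present in 12 of 20 gamma windows and 11.1% of all promoters. These 4 motifs were chosen after the member sequences had been inspected. The shorter GCGCT, which is contained in GGTGGCGCT, occurred in 13 of 14 beta, 11 of 20 gamma and 1 of 13 alpha windows against 41.5% of all promoters. A fixed pattern for the core consensus of CTCF was found in 1 member window, that of PCDHB9, and in 4.64% of all promoters. Sites that depart from this pattern were not searched for, so whether CTCF binds the other windows was not tested.

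PCDHGC3 was the most abundant clustered protocadherin in these tumours. Its mean level over the 12 libraries was 10.7 CPM per kilobase of unshared exon, against 3.35 for PCDHB5 and 2.64 for PCDHGB2, the next in order. PCDHGC3 alone held 23.9% of all member CPM and 56.3% of the gamma cluster's, and its share of the gamma total was 56.8 ± 4.90% in controls and 55.3 ± 5.32% in knock-downs (SD, n = 6). The other C-type genes differed widely from it: PCDHAC2 stood at 1.02 and PCDHAC1 at 0.839 CPM per kilobase, whereas PCDHGC5 (0.146) and PCDHGC4 (0.0753) were near the bottom of the order. Behind PCDHGB2 came PCDHB11 (2.47), PCDHGA7 (1.87), PCDHA3 (1.76), PCDHA6 (1.33), PCDHB14 (1.24), PCDHB16 (1.22) and PCDHB2 (1.20 CPM per kilobase). PCDHB14, PCDHB16 and PCDHB2 in this order lay closer together than the spread of each over libraries. With the whole deposited exon length in place of the unshared one, PCDHGC3 and PCDHB5 kept their ranks and PCDHGB2 moved from rank 3 to 4. Alpha genes fell further, PCDHA3 from rank 6 to 11, PCDHA6 from 7 to 14 and PCDHAC2 from 11 to 15. PCDHB14 rose from rank 8 to 5 and PCDHB2 from 10 to 7, so the order below the leading genes depends on the length used.

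**Figure D1:**
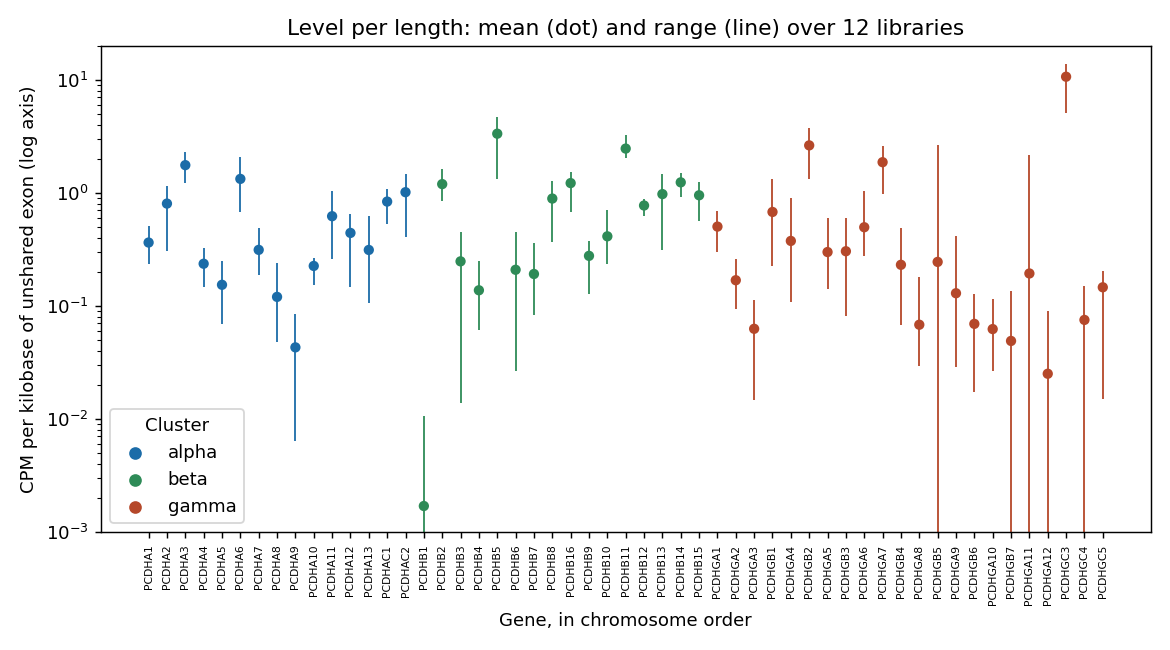
Level of each member per kilobase of unshared exon (CPM per kilobase, log axis), in chromosome order. Dots are means and lines the range over 12 libraries; ranges that reach 0 are drawn to the lower edge, and PCDHA14, with 0 unshared bases, is left out. PCDHGC3 stands highest at 10.7, and PCDHB1 lowest.

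Expression was otherwise spread over many members of each cluster. A mean of at least 1 CPM was reached by 27 of the 54 genes, 8 of them alpha, 11 beta and 8 gamma, and 13 stayed below 0.5 CPM. The largest single contributions were 20.7% of the alpha total from PCDHA3 and 18.9% of the beta total from PCDHB11. It took 10 alpha, 9 beta and 8 gamma genes to make up 90% of the respective total. PCDHA14 and PCDHB1 had at most 3 counts in any library. PCDHB1 was also the only beta gene with a promoter window that lacked GGTGGCGCT. The alpha genes whose windows lacked ATGTCGCT stood at 0.043 (PCDHA9), 0.623 (PCDHA11), 0.839 (PCDHAC1) and 1.02 CPM per kilobase (PCDHAC2). Whether the elements bear on level was not tested. In the heat map of log2 CPM by library, PCDHGC3, PCDHB5, PCDHB11 and PCDHGB2 are among the bright rows in both groups.

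**Figure D2:**
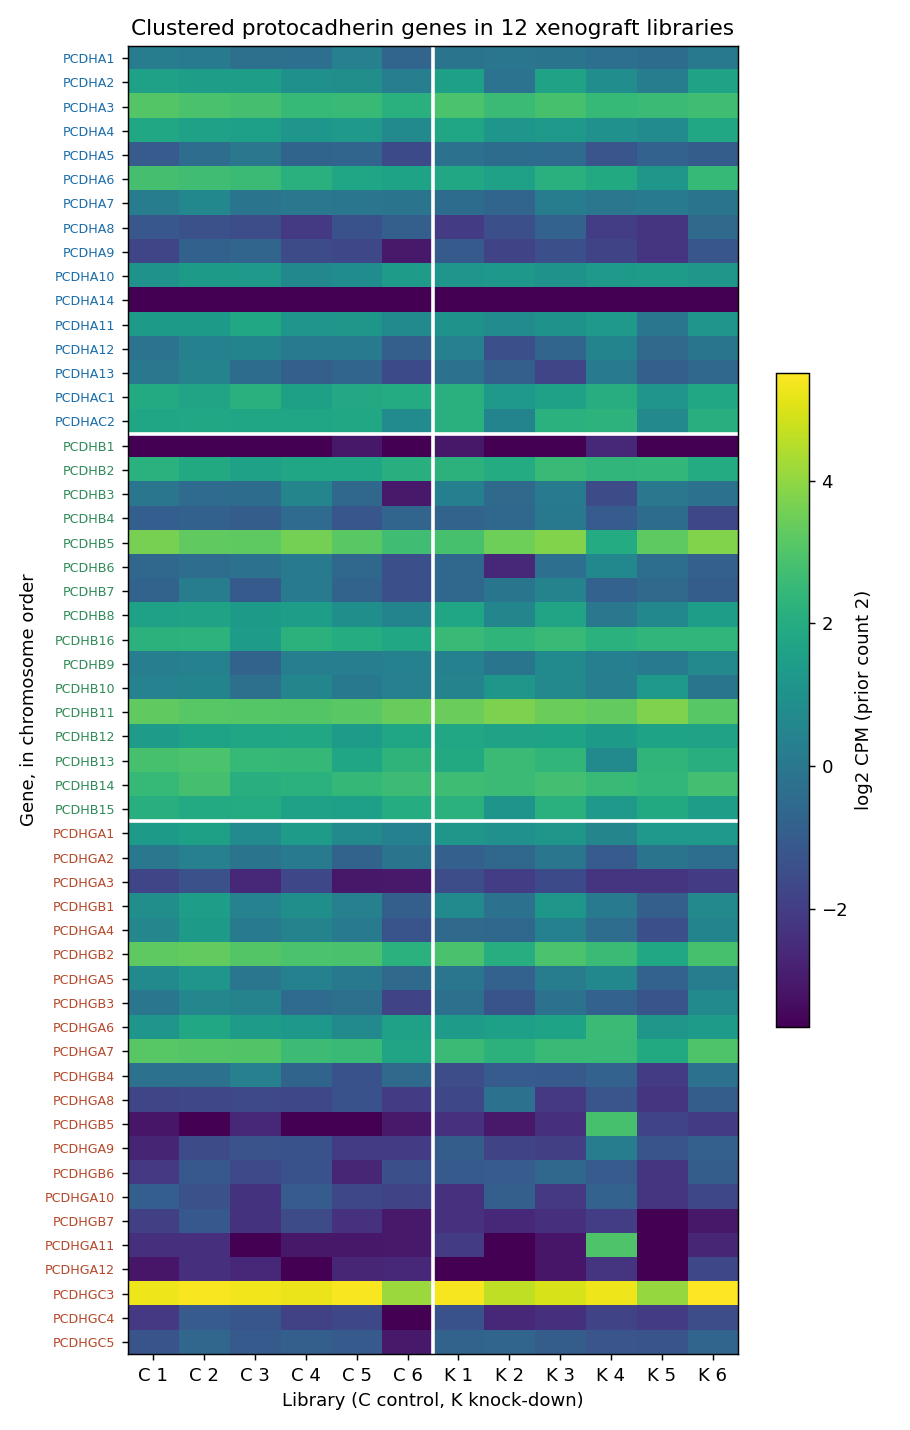
log2 CPM (prior count 2) of the 54 members (rows, chromosome order; label colour marks alpha, beta and gamma) in the 6 control (C) and 6 knock-down (K) libraries. PCDHGC3 is the brightest row, and knock-down 4 is bright in PCDHGB5 and PCDHGA11, which are dark in the other libraries.

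RING1B knock-down was compared with control to see whether loss of this Polycomb subunit changed expression of the clusters. No clustered protocadherin passed the test. Of the 54 members 40 had enough counts to be tested (13 alpha, 15 beta and 12 gamma), and edgeR's quasi-likelihood test called 0 of 40 at an adjusted p below 0.05, beside 49 of 16519 genes, or 0.297%, over the whole table. Groups did not overlap for 0 of 40 members, against 1.22% of all genes tested. At an unadjusted p below 0.05 edgeR gave 2 of 40 members, beside 12.7% of all genes tested. DESeq2 and limma-voom also called 0 members at the adjusted threshold, beside 356 and 56 of 16519 genes. At an unadjusted p below 0.05 they gave 3 and 2 members. Their own shares over all genes at that threshold were not taken, so these 2 counts cannot be read against 12.7%. The smallest adjusted p of any member was 0.375. The 95% interval of the log2 fold change lay within a 2-fold change in either direction for 29 of 40 members, namely 11 of 13 alpha, 13 of 15 beta and 5 of 12 gamma genes. For the 11 others a 2-fold change in 1 direction was inside the interval, so a change of that size is not excluded for them.

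**Figure D3:**
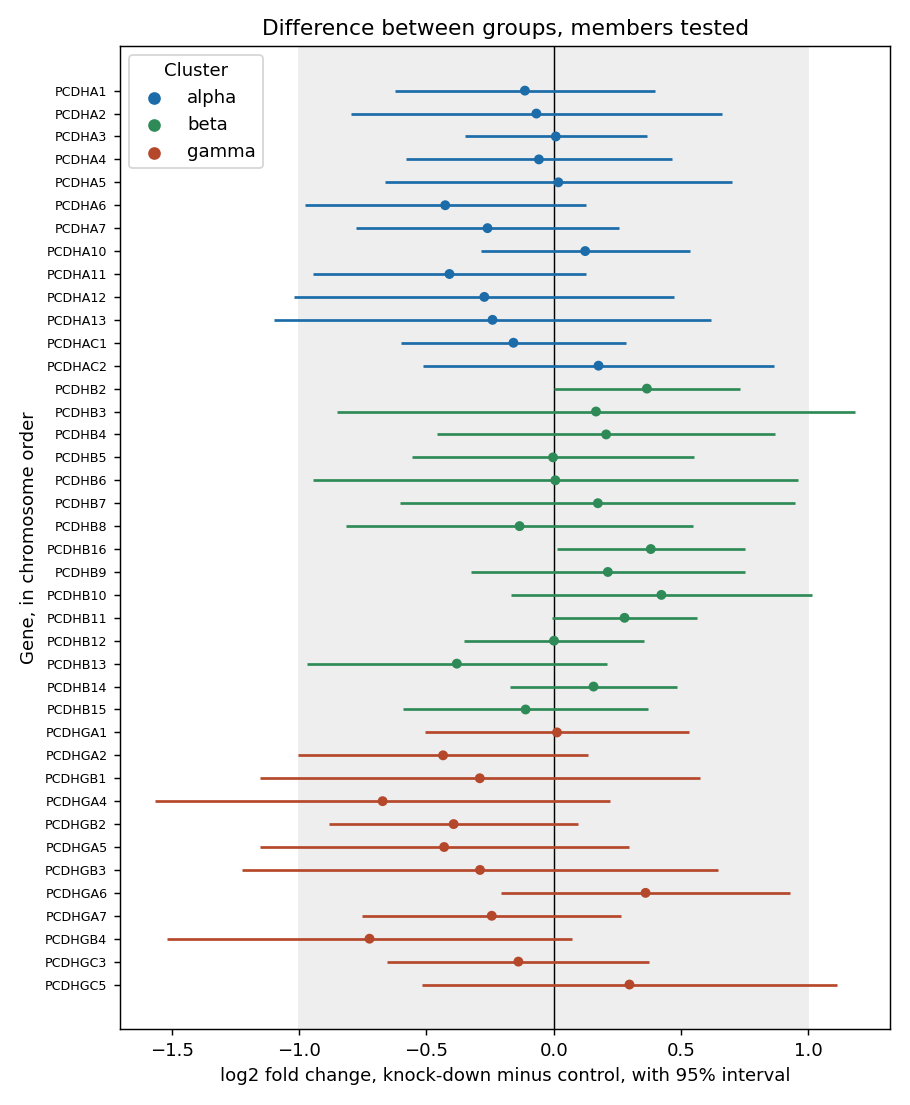
log2 fold change (knock-down minus control) of the 40 tested members with its 95% interval, in chromosome order and coloured by cluster; the grey band marks changes under 2-fold. Of the 40 intervals 38 cross 0, and those of PCDHB2 and PCDHB16 lie just above it.

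The alpha cluster summed to 31.9 ± 6.41 CPM in controls and 29.5 ± 5.97 CPM in knock-downs, the beta cluster to 51.2 ± 5.53 and 55.0 ± 7.89 CPM, and the gamma cluster to 63.8 ± 16.0 and 59.6 ± 18.5 CPM (SD, n = 6). The log2 ratios of these means were −0.11, 0.11 and −0.10, each smaller than the spread between libraries. Over tested members the median log2 fold change was −0.11 in alpha (4 above and 9 below 0), 0.17 in beta (11 above, 4 below) and −0.29 in gamma (3 above, 9 below), beside 0.01 over all genes tested. These medians moved with single libraries and settings. The beta median became −0.03 with the letter in the library titles as a covariate, whose meaning the labels do not give, and it was −0.02 without knock-down 3. It was 0.03 without control 6, 0.07 without control 3, 0.11 without control 5 and 0.09 with quality weights. In the other direction, it was 0.23 without knock-down 4 or control 4, 0.20 without control 2 and 0.19 without knock-down 2 or with title numbers summed. The alpha median was −0.02 without control 2, −0.06 without knock-down 5, −0.07 without control 1, −0.18 without knock-down 1, −0.19 without knock-down 6, −0.20 without control 6 and −0.01 with quality weights. The gamma median was −0.11 without control 2, −0.15 without knock-down 5 and −0.19 without control 3 or knock-down 2. It was −0.41 without knock-down 3, −0.42 without knock-down 6 and −0.45 without control 6.

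**Figure D4:**
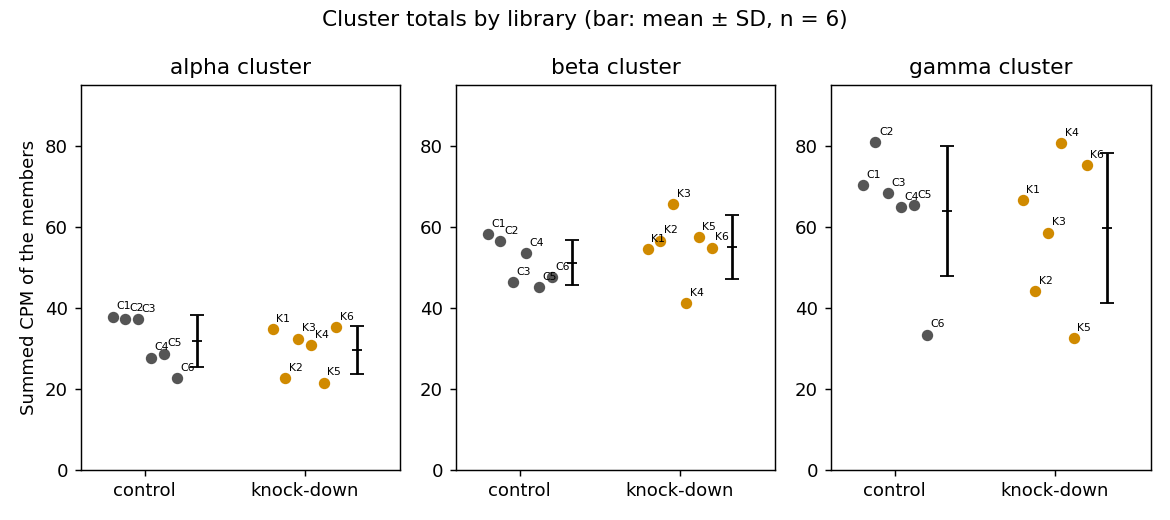
Summed CPM of the members of each cluster in each control (C) and knock-down (K) library, with mean ± SD (n = 6) beside the points. The groups overlap in all 3 clusters, and control 6, knock-down 2 and knock-down 5 are the lowest gamma libraries.

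Among the beta genes, the values nearest to the threshold were those of PCDHB16, PCDHB2 and PCDHB11, all higher in knock-down. PCDHB16 ranged from 2.55 to 4.70 CPM in controls with a median of 4.29, and from 4.47 to 5.79 CPM in knock-downs with a median of 5.09. The highest controls, 1, 2 and 4, reached into the range of the knock-downs, of which knock-down 4 was the lowest. The log2 fold change of PCDHB16, 0.38 (SE 0.173), had an edgeR adjusted p of 0.375. PCDHB16 had the smallest edgeR p of the 40 tested members and is described for that reason. A two-sided exact permutation test of each gene alone gave an unadjusted p of 0.00866 for PCDHB16, 0.026 for PCDHB2 and 0.0346 for PCDHB11. These exact values are not adjusted for the choice of the genes from the same data. PCDHB2 ranged from 2.95 to 4.56 CPM (median 3.51) in controls and from 3.82 to 5.75 CPM (median 4.87) in knock-downs. Controls 1 and 6 overlapped the knock-down range, and the log2 fold change of PCDHB2 was 0.37 (SE 0.171), with an edgeR adjusted p of 0.393. PCDHB11, the largest part of the beta total, ranged from 8.21 to 10.4 CPM (median 8.82) in controls and from 8.71 to 13.2 CPM (median 10.7) in knock-downs, with 212 to 316 counts behind each value. Its log2 fold change of 0.28 (SE 0.133) had an edgeR adjusted p of 0.405.

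PCDHB5, the beta gene with the highest level per length, had nearly equal group means, 9.73 ± 2.13 CPM in controls and 9.72 ± 3.81 CPM in knock-downs (SD, n = 6, log2 interval from −0.56 to 0.55). It ranged from 6.41 to 12.3 CPM in controls and from 3.83 to 13.6 CPM in knock-downs, where knock-down 4 was the lowest and knock-downs 3 and 6 the highest. PCDHB14 stood at 5.47 ± 1.003 and 6.10 ± 0.561 CPM (log2 fold change 0.16). The remaining tested beta genes had log2 fold changes between −0.38 for PCDHB13 and 0.42 for PCDHB10, with groups that overlapped. Of these, PCDHB10 shares many 50-base words with PCDHB9 and PCDHB13 with PCDHB8.

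In the alpha cluster the largest differences were lower values in knock-down for PCDHA6 and PCDHA11. PCDHA6 ranged from 3.10 to 6.86 CPM in controls (median 5.16) and from 2.21 to 5.56 CPM in knock-downs (median 3.59), a log2 fold change of −0.43 (SE 0.259, edgeR adjusted p = 0.520). PCDHA11 ranged from 1.59 to 3.51 CPM (median 2.32) and from 0.877 to 2.30 CPM (median 1.95), a log2 fold change of −0.41 (SE 0.252, edgeR adjusted p = 0.524). In both genes the groups overlapped. PCDHA3, the leading alpha gene, was at 6.33 ± 1.40 and 6.36 ± 0.750 CPM, and its interval ran from −0.35 to 0.37 on the log2 scale. PCDHA7 (log2 fold change −0.26), PCDHAC1 (−0.16) and PCDHAC2 (0.18) had adjusted p of 0.689 to 0.863 in edgeR.

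The gamma genes had the widest spread between libraries of a group, with a pooled SD of 0.55 for the median log2 CPM of the tested members, against 0.36 in alpha and 0.30 in beta. PCDHGB4 had the largest log2 fold change of the tested members, −0.72 (SE 0.373, edgeR adjusted p = 0.437), from 0.710 ± 0.296 CPM in controls to 0.428 ± 0.214 CPM in knock-downs on 4 to 30 counts per library. PCDHGA4 followed with −0.67 (SE 0.419, edgeR adjusted p = 0.529), and control 2, at 2.47 CPM, was 1.75 times the next library. PCDHGB2 ranged from 4.52 to 9.75 CPM in controls (median 7.78) and from 3.47 to 7.54 CPM in knock-downs (median 6.52), a log2 fold change of −0.39 (SE 0.229, edgeR adjusted p = 0.497). All 4 tested PCDHGB genes had negative values (−0.29 for PCDHGB1 and PCDHGB3), and none of them passed the test. PCDHGA7 (−0.24), PCDHGA2 (−0.43) and PCDHGA1 (0.01) also overlapped between groups. PCDHGC3 ranged from 17.3 to 42.9 CPM in controls (median 38.9) and from 16.7 to 45.4 CPM in knock-downs (median 35.0), with a log2 fold change of −0.14 (SE 0.242, edgeR adjusted p = 0.856). PCDHGC5 had 0.368 ± 0.178 and 0.455 ± 0.0999 CPM (log2 fold change 0.30), and PCDHGC4, which was below the filter, 0.226 ± 0.150 and 0.194 ± 0.0916 CPM.

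Some alpha and gamma genes were low in the same libraries. Control 6, knock-down 2 and knock-down 5 were the 3 lowest libraries for 11 of 40 tested members (27.5%), against 8.59% of all genes tested; the 3 libraries were picked out after the member values were seen. These 11 were PCDHA2, PCDHA6, PCDHA11, PCDHAC2, PCDHGB1, PCDHGA4, PCDHGB2, PCDHGA5, PCDHGB3, PCDHGA7 and PCDHGC3, or 4 of 13 alpha, 7 of 12 gamma and 0 of 15 beta genes. PCDHGC3 had 17.3 CPM in control 6, 24.9 in knock-down 2 and 16.7 in knock-down 5, and 31.2 to 45.4 CPM in the other 9 libraries. PCDHAC2 had 1.63, 1.31 and 1.503 CPM in the same libraries and 3.25 to 4.68 CPM in the others. Beta totals did not share this order, with 47.6, 56.6 and 57.5 CPM in those libraries and 41.2 to 65.6 CPM in the others. The same 3 libraries had the lowest TMM factors, 0.921, 0.956 and 0.952 against 0.987 to 1.04, and mitochondrially encoded genes took 14.4%, 7.64% and 10.01% of their counts, against 4.65% to 8.42% elsewhere. The part of these library properties in the member levels was not tested.

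Knock-down 4 differed from the other 11 libraries in several gamma genes. PCDHGA11 had 184 counts there (7.83 CPM) and 0 to 4 counts in each other library, and PCDHGB5 had 166 counts (7.07 CPM) and 0 to 5 elsewhere, so both fell below the filter of the fit over all genes. Both were named here after their values had been seen. PCDHGA6 was also highest in this library, at 6.004 CPM against 1.59 to 3.41 CPM, as was PCDHGA9, at 1.06 CPM against 0.0741 to 0.473 CPM. By contrast PCDHB5 (3.83 CPM), PCDHB13 (1.58 CPM) and PCDHB8 (0.937 CPM) were at their lowest there. Within the gamma total of that library PCDHGA11 made up 9.71% and PCDHGB5 8.76%, while PCDHGC3 was still 48.2%. Without knock-down 4 the log2 fold change of PCDHGA6 moved from 0.36 to 0.09. PCDHGA11 then averaged 0.0576 ± 0.0453 CPM (SD, n = 6) in controls and 0.0547 ± 0.0664 CPM (SD, n = 5) in knock-downs. For PCDHGB5, 0 to 2 counts in controls and 1 to 5 in the remaining knock-downs stayed at or close to the floor of 3 counts.

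The change in knock-down 4 was not limited to protocadherins. Of 12605 genes with at least 100 counts in some library, 46 (0.365%) were at least 10 times higher in knock-down 4 than in the next library, and in each other library 0 or 1 gene was. The 46 include PCDHGA11, PCDHGB5 and CDH2, the classical N-cadherin, which stood at 36.9 CPM against 0.0379 to 1.19 CPM. Knock-down 4 had the highest macrophage and leukocyte marker sum (18.6 CPM, against 4.06 to 15.7 elsewhere) and a fibroblast and pericyte sum of 1254 CPM, most of it COL1A1 (658 CPM) and COL3A1 (446 CPM). LUM and FAP of the same list were at their lowest there, LUM at 6.34 CPM against 17.7 to 38.5 CPM and FAP at 7.37 CPM against 9.27 to 23.1 CPM. In control 5, where the sum was 1264 CPM and also mostly COL1A1 and COL3A1, PCDHGA11 was at 0.0398 CPM and PCDHGB5 at 0. The part of other cell types in the values of knock-down 4 was not tested. Knock-down 3, which carries the same number in its title as knock-down 4, had PCDHGA11 at 0.0364 and PCDHGB5 at 0.109 CPM.

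**Figure D5:**
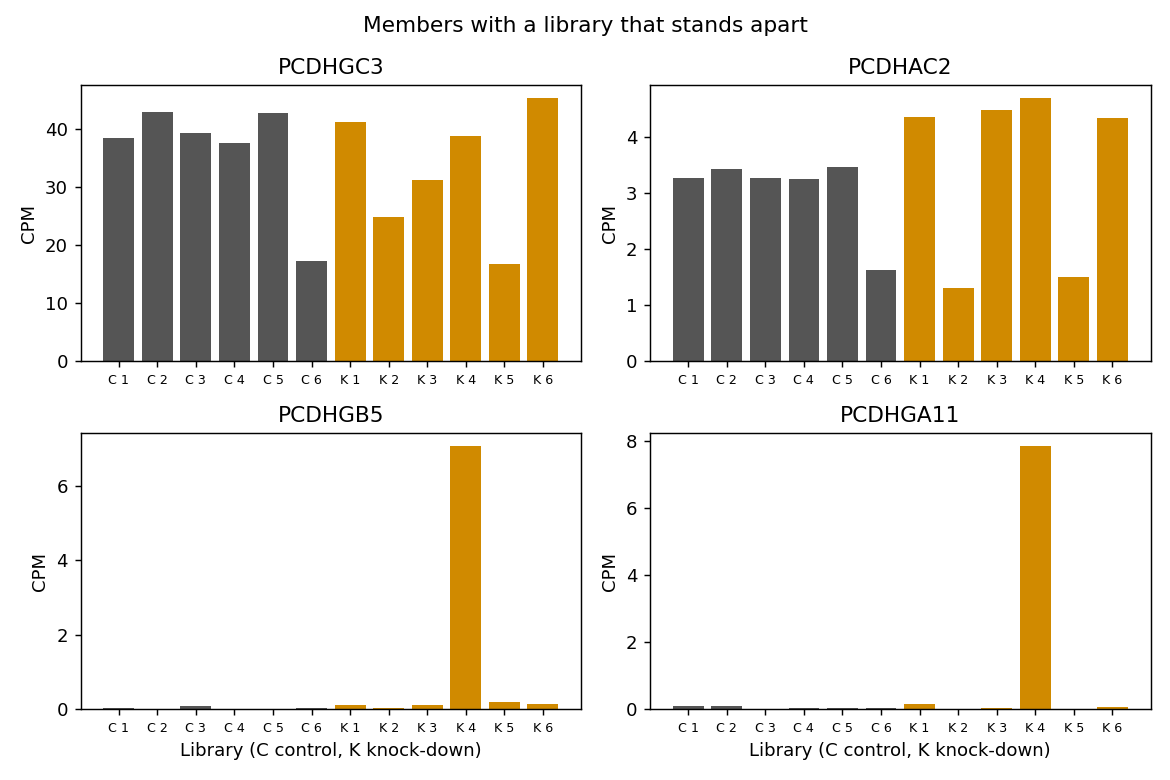
CPM of PCDHGC3, PCDHAC2, PCDHGB5 and PCDHGA11 in each control (C, grey) and knock-down (K, orange) library, on axes that start at 0. PCDHGC3 and PCDHAC2 are low in control 6 and in knock-downs 2 and 5, and PCDHGB5 and PCDHGA11 are high in knock-down 4.

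Genes of the machinery around the clusters were read from the same fit. Over all genes tested in it, 0.297% passed the adjusted threshold and 12.7% had an unadjusted p below 0.05. Of 12 insulator and cohesin genes 0 passed the adjusted threshold in edgeR and 2 had an unadjusted p below 0.05. CTCF, which binds protocadherin promoters, was at 111 ± 6.64 and 92.6 ± 11.4 CPM (SD, n = 6), a log2 fold change of −0.26 with an edgeR adjusted p of 0.279, and SMC1A, a cohesin subunit, had −0.40 (edgeR adjusted p = 0.322). Of 12 DNA methylation and cluster silencing genes 0 passed and 1 had an unadjusted p below 0.05. This was LRIF1 (0.48, edgeR adjusted p = 0.374), a partner of SMCHD1, itself a silencer of the clusters (−0.28, edgeR adjusted p = 0.395). Of 21 genes of protocadherin cleavage and signalling 0 passed and 1, the actin regulator CYFIP1 (−0.25, edgeR adjusted p = 0.367), had an unadjusted p below 0.05. In the 13 tested genes next to the clusters on the same chromosome band, 0 passed and 2 had an unadjusted p below 0.05, ZMAT2 (−0.22) and the formin DIAPH1 (−0.31).

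Of 10 tested protocadherins outside the clusters, 5 had positive and 5 negative log2 fold changes. Of these genes 0 passed the adjusted threshold in edgeR and 3 had an unadjusted p below 0.05. Over all genes tested these shares were 0.297% and 12.7%. PCDH8 was at 15.8 and 27.2 CPM on average (log2 fold change 0.78, edgeR adjusted p = 0.208), PCDH17 at 20.4 and 28.1 CPM (0.47, edgeR adjusted p = 0.313) and PCDH10 at 154.5 and 113 CPM (−0.45, edgeR adjusted p = 0.266), in control and knock-down. Of 12 other tested cadherins 1 passed and 5, that one included, had an unadjusted p below 0.05, 3 higher and 2 lower in knock-down. CDH20, a classical type II cadherin, fell from 0.929 to 0.314 CPM (log2 fold change −1.55, edgeR adjusted p = 0.0246). It ranged from 0.557 to 1.24 CPM in controls and from 0.197 to 0.401 CPM in knock-downs, where 3 counts correspond to 0.109 to 0.128 CPM. The call thus rests on few counts, and whether it holds under the alternatives was not examined. CDH10 (log2 fold change −0.60, edgeR adjusted p = 0.143), CDH11 (0.38, 0.295), CDH7 (0.40, 0.308) and CDH15 (1.11, 0.385) did not pass.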

How the data were processed

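RNeasy-extracted RNA of 12 tumours was sequenced from TruSeq stranded mRNA libraries, per the labels' protocols. The authors deposited unnormalised read counts per gene. The submitters' processing notes name FastQC, STAR 2.6.0a, featureCounts, limma 3.40.2, R 3.6.0 and hg38. How strand, multiply aligned reads and host reads were handled is not stated in these sources.

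Counts were analysed in R 4.3.3 with edgeR 4.0.16: filterByExpr (16519 genes kept), TMM factors, a robust quasi-likelihood F test of 6 knock-down against 6 control libraries, and Benjamini-Hochberg adjustment over all genes kept, called at 0.05. CPM is scaled by TMM factors, log2 CPM has a prior count of 2, and intervals are 95%. Single values had an exact permutation test, two-sided, over the 924 divisions of the libraries (smallest p 0.00216). Floors of 3 counts cover counting error alone. On simulated counts for 16278 genes the fit called 69 of 97 genes with a log2 change of 1, 92 of 98 with a change of 2 and 9 of 16083 unchanged genes. The changed genes were drawn at random from all genes tested, and no simulated library was made to stand apart. These shares therefore do not give the power for the members. Members, gene lists and motifs were chosen with earlier results of these data known.

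Named in each of the 5 families were called members, the 3 highest levels per kilobase and the 3 smallest p, with all C-type genes and, of each gene list, up to 4 of the smallest p. The lists were insulator and cohesin, DNA methylation and cluster silencing, cleavage and signalling partners, non-clustered protocadherins, other cadherins, neighbouring genes, cluster pseudogenes (of which 1 of 5, PCDHB18P, was tested, log2 fold change −0.17), antisense genes, and 5 lists of cell type markers. Alternatives changed the scaling (library size, RLE, upper quartile), the filter (none, or 1 CPM in 6 libraries), the tool (DESeq2 1.42.0, or limma-voom from limma 3.58.1, also with quality weights), the design (title letter as a covariate, title number as a random effect or summed), the threshold (0.01), the exon length, and the libraries, each left out in turn. Protein sequences were not analysed here.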

Additional observations from a re-analysis of the deposited data

Results flagged for a closer look

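Of 56 groups of 6 libraries checked for a sample far from the others, 7 had one, where chance gives about 1 in 20. The count cannot be read against that share, because PCDHGB5 and PCDHGA11 were included for their values in knock-down 4 and PCDHGC3 makes up most of the gamma total. In 4 of them control 6 lay far below the other controls: PCDHGC3 at 17.3 CPM, PCDHAC2 at 1.63 CPM, PCDHGC5 at 0.0419 CPM (1 count) and the gamma total at 33.4 CPM. In the other 3 knock-down 4 lay far above the other knock-downs: PCDHGA11 at 7.83 CPM, PCDHGB5 at 7.07 CPM and PCDHGA6 at 6.004 CPM.

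Without control 6 the controls held 40.2 ± 2.50 CPM of PCDHGC3 and 3.33 ± 0.0980 CPM of PCDHAC2 (SD, n = 5), against 33.1 ± 10.9 and 3.44 ± 1.58 CPM in knock-down (SD, n = 6). The exact permutation tests then gave p = 0.197 for PCDHGC3, 0.667 for PCDHAC2 and 0.732 for PCDHGC5. Without knock-down 4 the exact permutation tests gave p = 0.569 for PCDHGA6, 0.799 for PCDHGA11 and 0.0108 for PCDHGB5, the last on at most 5 counts in any library.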

How the results depend on the processing

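Of the 40 tested members 0 were called under each alternative, while the count over all genes, 49, ranged widely. It was 356 with DESeq2 and 500 with limma-voom and quality weights. With the title number as a random effect in limma-voom it was 91, against 56 in limma-voom without it. The correlation between libraries of the same title number was estimated there at −0.125, a single value over all genes. Only title numbers 60, 62, 67 and 68 are shared by libraries, and number 67 includes knock-down 4. The estimate therefore showed no likeness within title numbers but cannot exclude it. The count was 7 with libraries of a title number summed, 28 with the title letter as a covariate and 3 at an adjusted p of 0.01. Leaving out each library in turn gave 16 to 79 calls, and leaving out control 6 and knock-down 4 together, an alternative chosen after seeing the data, gave 132. The cause of these differences was not tested. The smallest adjusted p of any member under any alternative was 0.199, for PCDHB16 in limma-voom with quality weights.

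The sign of the fold change was kept under every alternative run by 25 of 40 members and changed for 15, none of them called. Leaving out each library moved the log2 ratio of the gamma totals between −0.23 and 0.03, the positive value without knock-down 5. No paired analysis was possible because no number in the library titles occurs in both groups.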
